A study of Mus musculus with 4 samples.

Results

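The sites described here are 1256 p63 peaks of wild-type (WT) mouse epidermis that lay between protein-coding genes and had no counterpart in the p63 alphaKO library. A site was taken when its peak shared no base pair with any alphaKO peak and its summit lay outside every protein-coding gene body and more than 1 kb from every protein-coding gene end in RefSeq GRCm38.p6, the assembly that mm10 names. They were 1256 of 10616 WT peaks and of the 25209 peaks in both lists. Among the 4392 WT peaks between genes, 28.6% (95% Wilson interval 27.3 to 30.0%) were WT-only, beside 33.4% of all WT peaks. The other 3136 WT peaks between genes shared sequence with an alphaKO peak and serve as the comparison, under the name shared sites. The sites were chosen by the positions of called peaks in both lists, so their absence from the alphaKO list is a description and not a result.

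The data came from chromatin immunoprecipitation and sequencing (ChIP-seq) with the p63 antibody EPR570 on epidermal cells of dorsal skin at postnatal day 0. The WT group and the p63 alphaKO group each had 1 ChIP library and 1 input library. Only the ChIP peak lists were used here. The sources used here do not give the allele behind the alphaKO label, the strain, the number of animals in a library or the p63 isoforms that the antibody binds. With 1 library per genotype no difference could be tested against replicate spread. Every interval below covers counting error only, and sites are not replicates of a condition.

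p63, encoded by Trp63, is a transcription factor of the p53 family that basal keratinocytes need to form and maintain stratified epidermis. It binds DNA as a tetramer at paired copies of a short core, C, then A or T, then A or T, then G. Its transcripts differ at the 3′ end, and the alpha forms carry a long C-terminal tail with a sterile alpha motif domain. In epidermis much of its binding is known to lie at enhancers far from promoters, and for that reason sites between genes are of interest.

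No genome sequence was used here, so DNA could be read only where a summit fell in a RefSeq start window, the 250 bases before and 50 bases after an annotated start. This was the case for 27 of the 1256 sites and 29 windows, each of them the start of a long non-coding RNA (lncRNA) gene. Among shared sites between genes it was the case for 40 peaks and 42 windows, also all lncRNA starts. The windows printed next are 4 WT-only and 2 shared examples, picked to show the contrast that the counts below describe. Each is read 5′ to 3′ on the strand of the lncRNA, from RefSeq GRCm38.p6. Capitals mark a p53-family double core of 14 bases (the core, any 6 bases, the core) or the AP-1 word TGANTCA. Base positions count from 1 at the 5′ end of the window.
Gm40804 window: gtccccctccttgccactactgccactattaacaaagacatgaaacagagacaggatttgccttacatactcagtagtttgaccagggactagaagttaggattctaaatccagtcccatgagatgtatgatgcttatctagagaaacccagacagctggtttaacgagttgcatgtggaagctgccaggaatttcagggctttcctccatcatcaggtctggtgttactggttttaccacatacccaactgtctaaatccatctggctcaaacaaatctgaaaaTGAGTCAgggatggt
Dleu2 window: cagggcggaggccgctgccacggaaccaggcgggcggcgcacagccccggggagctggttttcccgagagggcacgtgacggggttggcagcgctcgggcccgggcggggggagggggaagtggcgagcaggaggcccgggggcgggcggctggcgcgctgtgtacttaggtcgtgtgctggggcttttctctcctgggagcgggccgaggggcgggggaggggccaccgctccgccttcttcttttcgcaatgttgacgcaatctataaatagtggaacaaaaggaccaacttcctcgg
0610040F04Rik window: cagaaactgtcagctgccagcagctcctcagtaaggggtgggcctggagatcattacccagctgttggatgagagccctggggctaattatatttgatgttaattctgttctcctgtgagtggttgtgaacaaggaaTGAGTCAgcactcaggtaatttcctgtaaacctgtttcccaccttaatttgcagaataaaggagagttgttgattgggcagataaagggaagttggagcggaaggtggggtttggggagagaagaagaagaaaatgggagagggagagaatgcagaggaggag
Malat1 window: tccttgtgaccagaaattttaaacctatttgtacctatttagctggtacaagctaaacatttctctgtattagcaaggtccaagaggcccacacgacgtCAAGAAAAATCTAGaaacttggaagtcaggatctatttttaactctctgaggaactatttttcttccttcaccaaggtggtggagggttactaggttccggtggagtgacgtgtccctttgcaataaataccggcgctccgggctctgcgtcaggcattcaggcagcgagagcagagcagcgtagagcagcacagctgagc
Gm30257 window: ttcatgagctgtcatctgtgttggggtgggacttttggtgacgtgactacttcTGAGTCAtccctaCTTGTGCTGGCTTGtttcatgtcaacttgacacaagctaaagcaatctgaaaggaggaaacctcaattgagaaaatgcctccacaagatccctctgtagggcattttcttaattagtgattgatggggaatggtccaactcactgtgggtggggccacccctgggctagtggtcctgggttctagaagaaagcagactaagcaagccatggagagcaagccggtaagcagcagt
Gm33122 window: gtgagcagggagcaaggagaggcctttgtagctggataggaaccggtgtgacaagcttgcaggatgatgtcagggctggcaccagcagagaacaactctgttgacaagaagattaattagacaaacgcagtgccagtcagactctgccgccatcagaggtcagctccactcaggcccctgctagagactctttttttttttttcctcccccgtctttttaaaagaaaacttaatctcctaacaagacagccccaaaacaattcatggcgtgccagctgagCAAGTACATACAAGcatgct

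The Gm40804 window (chr10:127925187-127925486, minus strand) belongs to the WT-only site with the highest fold enrichment among the 27, at 10.9. Its summit fell on base 199 and it held an AP-1 word 90 bases away. The nearest protein-coding gene was Sdr9c7, an epidermal dehydrogenase of ceramide processing, at 13.5 kb. The Dleu2 window (chr14:61682324-61682623, minus strand) lay under a site of fold 7.55 with its summit on base 90, and it held neither word. The 0610040F04Rik window (chr6:108623118-108623417, minus strand) lay under a site of fold 5.54, and its AP-1 word was centred 3 bases from the summit. Bhlhe40, a circadian and differentiation-linked repressor, was 37.3 kb away. That AP-1 distance was the smallest among the 9 WT-only windows with the word, whose median was 48 bases. Some WT-only sites of higher fold with a window are not printed. The Malat1 window (chr19:5802623-5802922, minus strand) held the sole double core among the WT-only windows. That match began at base 100 and was centred 163.5 bases from the summit, under a peak of fold 4.26.

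The shared windows printed are examples that hold a double core, which was in 17 of 42. The windows of the 3 strongest shared peaks, at Gm46359 (fold 87.9), Gm29985 (60.5) and Gm35551 (45.5), held none. In the Gm30257 window (chr2:72733571-72733870, plus strand) the double core was centred 0.5 bases from the summit of a peak of fold 41.9, and an AP-1 word lay 17 bases from the summit. In the Gm33122 window (chr7:129651809-129652108, minus strand) it was centred 2.5 bases from the summit of a peak of fold 35.9.

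A double core was present in 1 of 29 WT-only windows (3.45%, interval 0.611 to 17.2%) and in 17 of 42 shared windows (40.5%, interval 27.0 to 55.5%). The intervals did not overlap. In the 17 shared windows the match lay a median of 8.5 bases from the summit, and in 16 of them it lay within 50 bases. Over all 11588 lncRNA start windows the share was 8.55%, and over all 32851 windows it was 7.22%. The alphaKO-only peaks between genes had it in 5 of 12 windows (41.7%, interval 19.3 to 68.0%). Thus the shared and the alphaKO-only windows were near 40%, while the WT-only windows were below the level of all lncRNA starts, with an interval that includes it.

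The AP-1 word, the recognition sequence of Fos and Jun dimers, was present in 9 of 29 WT-only windows (31.0%, interval 17.3 to 49.2%). It was present in 7 of 42 shared windows (16.7%, interval 8.32 to 30.6%) and in 9.31% of all lncRNA start windows. The intervals of WT-only and shared windows overlapped, and the difference was not tested. Among shared sites of fold under 12 the word was in 2 of 20 windows (10.0%). At any position, WT-only windows had it more often from fold 4 to 6 (13.7% of 233 against 3.90% of 77). The same held from fold 8 to 12 (30.0% of 20 against 15.9% of 63). They had it less often under fold 4 (5.86% against 11.1%) and from 6 to 8 (9.26% against 14.3%). The intervals overlapped in every band. At gene ends the word was in 8.13% of 492 WT-only windows and in 12.1% of 281 windows of WT peaks with a partner. In gene bodies these shares were 15.5% of 103 and 12.5% of 40. In the WT-only windows between genes the word lay between 3 and 223 bases from the summit, with a median of 48, and 5 of the 9 lay within 50 bases. In the shared windows the median was 24 bases, and 5 of the 7 lay within 50. WT-only windows had a median GC content of 57.0% and shared windows 54.0%, beside 48.3% for all lncRNA starts. Their upper quartiles were 67.3% and 58.6%, beside 53.7%. The median ratio of observed to expected CpG dinucleotides was 0.424 and 0.293, beside 0.245. The part of base composition in the shares of the double core and of the AP-1 word was not tested. A pair of WT-only windows overlapped at Gm38424, and Gm32817 and Gm53058 had the same window, so the windows are not all separate sequences. Among shared windows a pair overlapped at Gm46359. The windows of Gm15408 and Gm15411 also overlapped, under the same peak, and both held a double core. The 17 shared windows with a double core thus lay under 16 peaks.

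**Figure D1:**
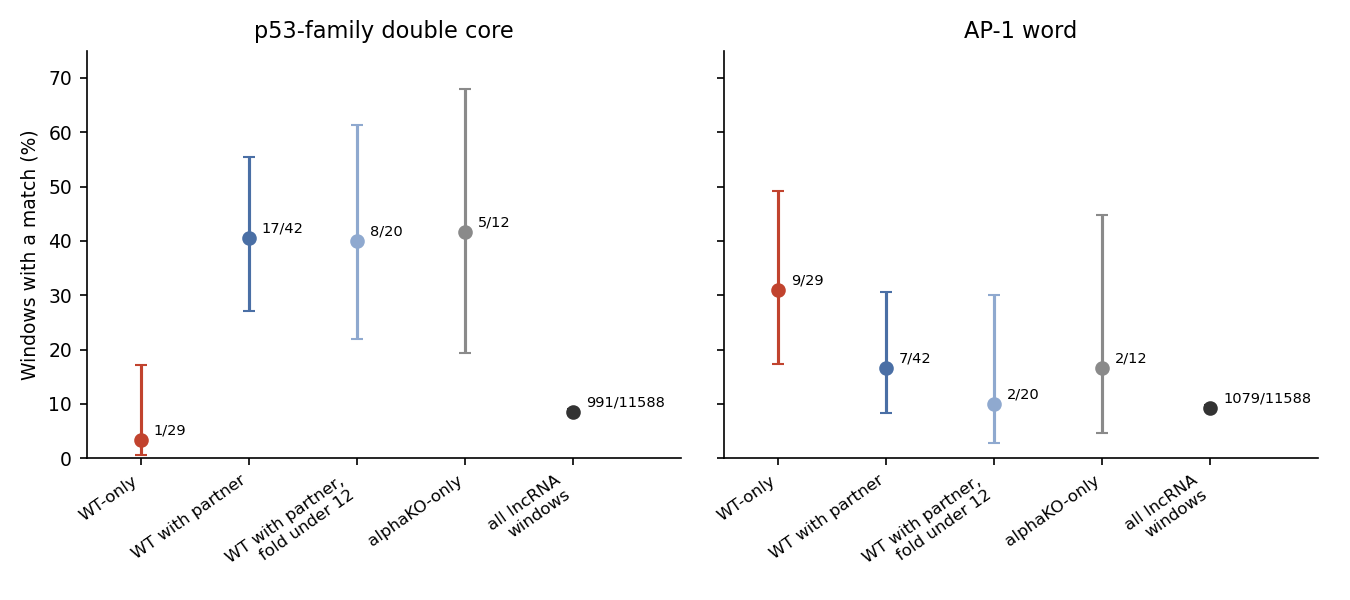
Share of RefSeq start windows (percent, vertical axis) that hold a p53-family double core (left) or the AP-1 word (right), for windows with a summit inside; bars are 95% Wilson intervals and labels give windows with a match over windows read. The double core was in 1 of 29 WT-only windows and in 17 of 42 shared windows, whereas the AP-1 intervals of these classes overlapped.

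The classes also differed in peak strength. The WT-only sites with a window had a median fold of 4.67 and the shared ones 12.02. Among shared sites of fold under 12, whose median was 5.56, 8 of 20 windows held a double core (40.0%, interval 21.9 to 61.3%). Windows under WT peaks at any position, including gene bodies and gene ends, allowed a comparison at like fold. Between fold 4 and 6 the double core was in 3 of 233 WT-only windows (1.29%, interval 0.439 to 3.72%) and in 8 of 77 windows of WT peaks with an alphaKO partner (10.4%, interval 5.36 to 19.2%). Between fold 6 and 8 it was in 3 of 54 (5.56%, interval 1.91 to 15.1%) and in 9 of 56 (16.1%, interval 8.69 to 27.8%), with overlapping intervals. Under fold 4 it was in 11 of 307 (3.58%, interval 2.01 to 6.30%) and in 4 of 36 (11.1%, interval 4.41 to 25.3%), also overlapping. From fold 8 to 12 it was in 0 of 20 (interval 0 to 16.1%) and in 17 of 63 (27.0%, interval 17.6 to 39.0%). At gene ends, where most windows lie, the WT-only share was 2.64% of 492 windows and the share of WT peaks with a partner 18.5% of 281. A match here is a string of letters and not a shown binding site, and a window without it can hold p63 sites of other spelling. A looser form of the double core, with any base in place of A or T, was in 86.2% of WT-only windows (interval 69.4 to 94.5%), in 42 of 42 shared windows and in 61.2% of all lncRNA windows.

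The WT-only sites between genes were weak peaks of the WT list. Fold enrichment, the caller's ratio of summit coverage to local background as the authors deposited it, had a median of 5.16 (quartiles 4.01 and 6.76) and ran from 1.06 to 19.8. The shared sites had a median of 11.4 (quartiles 7.96 and 17.7) and reached 127. WT-only peaks within gene bodies (1221 peaks) had a median of 5.07, close to the sites between genes, and WT-only peaks at gene ends (1073 peaks) had 4.06. The median −log10 q was 17.1 for the WT-only sites and 68.1 for the shared sites, and 75.1% and 97.6% of them reached 10. The WT-only peaks were also narrower, with a median of 350.5 bp against 393 bp, and their median coverage at the summit was 47 against 98. Local background differed little between these classes, at medians of 8.02 and 7.79, so the lower fold went with lower summit coverage.

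Only 3 WT-only sites belonged to the strongest 20% of the WT list by fold, above 16.3, and 30 exceeded the median of the shared sites. The share of WT-only peaks among WT peaks between genes was lower at high WT fold. It was 72.6% of 113 peaks of fold under 3, 77.7% of 291 peaks from 3 to 4 and 72.2% of 389 peaks from 4 to 5. From there it fell, to 58.0% of 362 peaks from 5 to 6, 39.6% of 720 peaks from 6 to 8 and 18.5% of 594 peaks from 8 to 10. Of 1923 peaks of fold 10 or more, 62 were WT-only (3.22%). WT-only peaks thus lay mostly at the weak end of the WT list, which is a description, since the rule used both lists.

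**Figure D2:**
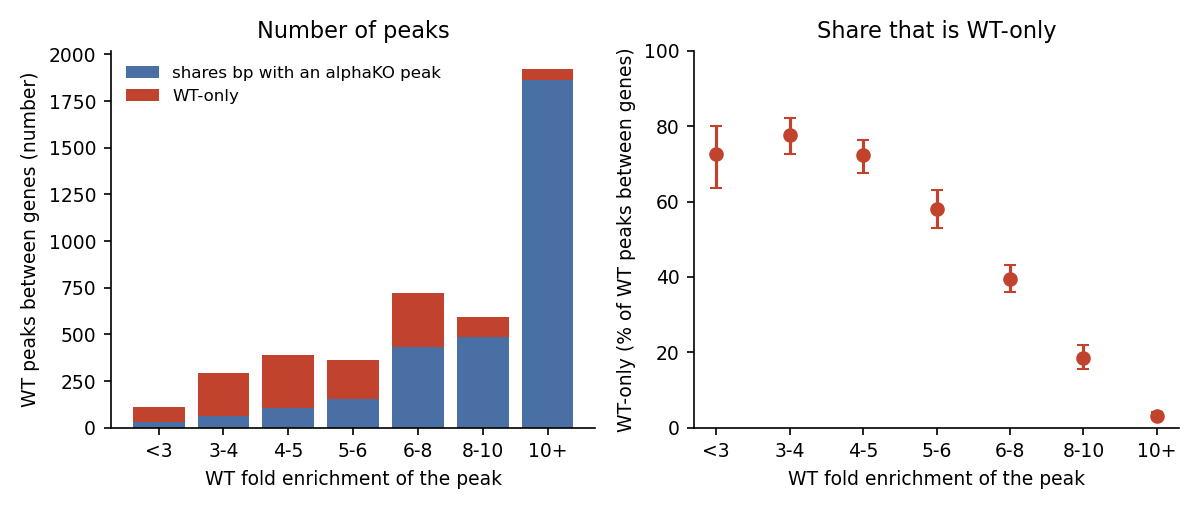
Left, number of WT peaks between genes in bands of WT fold enrichment (bars start at 0), split into WT-only peaks and peaks that share base pairs with an alphaKO peak. Right, the WT-only share of each band in percent with 95% Wilson intervals, which was 77.7% from fold 3 to 4 and 3.22% at fold 10 or more.

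The alphaKO list held few peaks of such low fold. A fold under 5.16, the median of the WT-only sites, was given to 24.5% of all WT peaks and to 4.77% of the 14593 alphaKO peaks. Between genes it was given to 310 of 6760 alphaKO peaks (4.59%). The 5th percentile of fold in the alphaKO list, 5.27, was above the median of the WT-only sites. The median local background was 5.22 at alphaKO-only peaks between genes and 8.02 at the WT-only sites. The lists carry no value for places without a called peak, and whether p63 signal at these sites was lower in alphaKO epidermis was not tested.

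Few sites were near misses of an alphaKO peak. The nearest alphaKO summit lay at a median of 18.4 kb (quartiles 5.84 and 53.2 kb) and never closer than 0.527 kb. It was within 1 kb for 43 sites (3.42%), within 10 kb for 454 (36.1%) and within 50 kb for 923 (73.5%). In the 43 near cases the edges of the peaks were a median of 418 bp apart, the WT fold had a median of 5.05 and the alphaKO neighbour a median of 13.1, higher in 40 of 43. Over the whole alphaKO list the median fold was 15.5, so neighbours of higher fold are not particular to these sites. Near the limits of the rule, the smallest gaps to an alphaKO peak were 118 bp at Marcks (fold 3.38), 158 bp at Id4 (3.52) and 217 bp at Cldnd1 (4.38). The smallest overlaps among peaks not taken were 88 bp at Dsg2 (3.86), 156 bp at Rpl11 (6.46) and 170 bp at Stx11 (2.24). For the gene limit, the nearest sites inside were at 1011 bp from Spry2 (2.77), 1033 bp from Ly6a (5.01) and 1050 bp from Dynlt3 (4.01). The nearest peaks outside were at 994 bp from Eapp (8.12), 966 bp from Efr3a (4.64) and 963 bp from Cish (5.71).

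Distance to genes was much the same for WT-only and shared sites. The median distance from a summit to the nearest protein-coding gene end was 25.8 kb for WT-only sites (quartiles 8.56 and 78.7 kb) and 28.1 kb for shared sites. It was 41.6 kb for the 3615 alphaKO-only peaks between genes. From 1 to 5 kb lay 14.9% of WT-only and 16.0% of shared sites, and from 10 to 50 kb lay 36.5% and 37.0%. Beyond 500 kb lay 15 WT-only sites (1.19%), 61 shared sites (1.95%) and 191 alphaKO-only peaks (5.28%). Fold varied little with distance, with medians between 4.43 beyond 500 kb and 5.31 from 5 to 10 kb. The farthest sites lay 1556 kb from Slc39a10 (fold 4.79), 1119 kb from Efnb2 (5.70) and 998 kb from Arrdc3 (8.71).

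**Figure D3:**
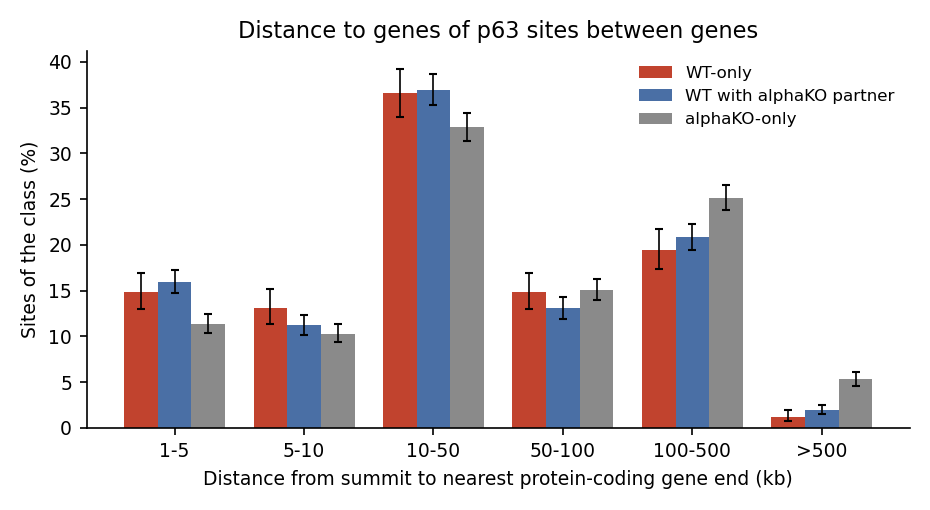
Share of sites (percent, bars start at 0) by distance from the summit to the nearest protein-coding gene end in kb, for WT-only sites, WT sites with an alphaKO partner and alphaKO-only sites, all between genes; error bars are 95% Wilson intervals. The intervals of WT-only and shared sites overlapped in every bin, and 5.28% of alphaKO-only sites lay beyond 500 kb against 1.19% of WT-only sites.

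The label holds for protein-coding genes only. Of the 1256 sites, 270 had their summit inside a lncRNA gene (21.5%, interval 19.3 to 23.9%), beside 19.1% of shared sites and 15.8% of alphaKO-only peaks between genes. Within 1 kb of a lncRNA end lay 115 WT-only sites (9.16%, interval 7.68 to 10.9%), 6.66% of shared sites (interval 5.84 to 7.59%) and 3.62% of alphaKO-only peaks (interval 3.06 to 4.28%). The interval of WT-only sites lay above that of alphaKO-only peaks and only just above that of shared sites (7.68% against 7.59%). These intervals treat sites as independent, and the difference was not tested. In all, 343 of the 1256 sites were in or at a non-coding gene of any kind, beside 750 of 3136 shared sites and 730 of 3615 alphaKO-only peaks. A site of fold 9.66 lay at chr12:112133502-112133843, 2776 bp from the hairpin of Mir203, a microRNA known to restrain p63 as keratinocytes leave the basal layer. A site of fold 4.51 lay 467 bp from Mir210, a hypoxia-induced microRNA. In total 11 sites lay within 5 kb of a microRNA hairpin, with folds from 2.13 to 9.66. Shared sites near hairpins were not counted, so these 11 do not set the WT-only sites apart. The microRNA names above were chosen after their values were seen.

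Many WT-only sites had a WT peak with an alphaKO partner in their neighbourhood. Such a peak, at any position, was within 10 kb of 352 sites (28.0%, interval 25.6 to 30.6%) and within 50 kb of 750 (59.7%, interval 57.0 to 62.4%). For shared sites between genes, another WT peak with a partner was within 10 kb in 22.2% (interval 20.7 to 23.6%) and within 50 kb in 54.3% (interval 52.6 to 56.0%). The intervals did not overlap at either distance, but they treat sites as independent. Of the 1256 sites, 547 (43.6%) were in a gap with at least 1 other WT-only site. A shared site also did not count itself, so the measure was not quite the same for both classes. Whether the classes differ in this was not tested. WT-only peaks in gene bodies had nearly the same share within 50 kb, 60.2%, and those at gene ends a lower one, 48.3%. Seen by the gap between neighbouring protein-coding genes, 793 sites (63.1%) were in a gap that also held a shared WT peak, and 669 (53.3%) in a gap that held an alphaKO-only peak. Another 303 (24.1%) were in a gap with neither, and these gaps were short, with a median of 40.1 kb against 392 kb where both were present. The same shares by gap were not counted for shared sites, so they do not set the WT-only sites apart.

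The sites were also near each other in part. Another WT-only site between genes lay within 5 kb of 126 sites (10.0%), within 10 kb of 198 (15.8%) and within 50 kb of 414 (33.0%). Any other WT peak lay within 10 kb of 40.8% of the sites and within 50 kb of 73.7%. Spacing of shared sites among themselves was not counted by this measure, so clustering particular to WT-only sites was not shown. The 1256 sites occupied 913 gaps, 70 of which held at least 3. By chromosome, the WT-only share of WT peaks between genes ran from 22.0% (41 of 186) on chromosome 17 to 35.2% (38 of 108) on chromosome 19. The intervals of all autosomes and of chromosome X included 28.6%, except that of chromosome 17, whose upper bound was 28.5%. A run of 6 sites at the start of chromosome 9, assigned to Alkbh8 at 298 to 331 kb, had folds of only 1.13 to 1.40 on local backgrounds up to 10598. It lies in a stretch with 14 shared sites of fold 1.10 to 1.66. Whether repeated sequence gave this background was not tested. In all, 8 of the 1256 sites had a background above 50, beside 19 of the 3136 shared sites, which is a like share.

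By nearest gene, the sites fell to 970 of 21887 protein-coding genes (4.43%), while shared sites between genes fell to 2092 (9.56%). Of the 970, 180 genes had at least 2 sites, 60 at least 3 and 12 at least 5. The nearest gene is a position label, and no expression was measured. The genes with the largest numbers were Myc, the growth-promoting transcription factor, with 8 sites, and Zfp703 and Rragc with 7 each. Arf6, Irx2 and Alkbh8 followed with 6, and Marcks, Med13l, Tbc1d1 and Actl7b had 5 each. Gata3 and Rassf9 also had 5, and fell behind these by their strongest site. These numbers were not set against the length of the gaps, and some gaps were long. The site 1.78 kb from Myc was 1062 kb from A1bg, the next gene on its other side. The site 2.22 kb from Marcks was 1679 kb from Rfpl4b. The ranking thus does not show a concentration of sites at these genes.

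The 8 sites assigned to Myc were spread from 1.78 to 495 kb from the gene on both sides. On the lower-coordinate side their folds were 7.20, 3.65, 2.93, 7.09, 8.60 and 3.36 from far to near, and on the other side they were 3.49 and 4.51. The 7 shared sites of the same territory were each near or above the strongest of these, from 8.40 to 47.6 with a median of 21.0. The 5 alphaKO-only peaks there had alphaKO folds up to 14.5. A WT-only site of fold 8.60 lay at 71.6 kb from Myc beside a shared site of fold 27.3 at 74.6 kb.

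At Zfp703, a zinc-finger transcriptional corepressor, the 7 sites lay on 1 side of the gene, 14.6 to 230 kb away. Their folds were 9.40, 7.87, 8.34, 3.34, 11.0, 3.95 and 6.87 from far to near. The sites of fold 7.87, 8.34 and 3.34 lay within 3.52 kb around a shared site of fold 20.8. The other shared sites had folds of 4.11 and 3.86, below most of the WT-only sites, so this territory had WT-only sites among its stronger peaks. The alphaKO-only peak there had an alphaKO fold of 6.68.

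Rragc, a GTPase of nutrient sensing, was the nearest gene to 7 sites that lay 236 to 297 kb away in the gap towards Pou3f1, a POU-domain transcription factor of keratinocyte differentiation. Their folds ran from 3.50 to 6.89, within a block of 4 shared sites of fold 6.41 to 24.0, and no alphaKO-only peak was assigned to Rragc. Pou3f1 itself was nearest to further sites of fold 8.80, 7.60 and 5.06, all inside the lncRNA gene Gm2164.

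Irx2, a homeobox gene of the Iroquois family, had 6 sites of fold 2.75 to 7.79 interleaved with 6 shared sites of fold 11.1 to 15.3. Every shared site there was stronger than every WT-only site. Arf6, a GTPase of membrane traffic, had 6 sites of fold 3.27 to 9.45 from 13.7 to 71.5 kb, with shared sites of fold 15.2 and 8.08 and an alphaKO-only peak of 15.4. At Marcks, a membrane-bound substrate of protein kinase C, 5 WT-only sites of fold 3.38 to 11.9 stood beside 3 shared sites and 8 alphaKO-only peaks with alphaKO folds up to 22.7.

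The long gap between Klf4 and Actl7b held sites of both genes. Klf4, a transcription factor of the epidermal barrier, had 3 sites of fold 13.1, 7.37 and 6.41 at 189, 371 and 404 kb. The first of them (chr4:55721737-55722086) lay 4.41 kb from a shared site of fold 12.1, so the WT-only peak was not the weaker of this pair. Actl7b, a testis actin-like gene, had 5 sites of fold 3.07 to 7.35, with 8 shared sites up to 28.2 and 6 alphaKO-only peaks up to 27.6.

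**Figure D4:**
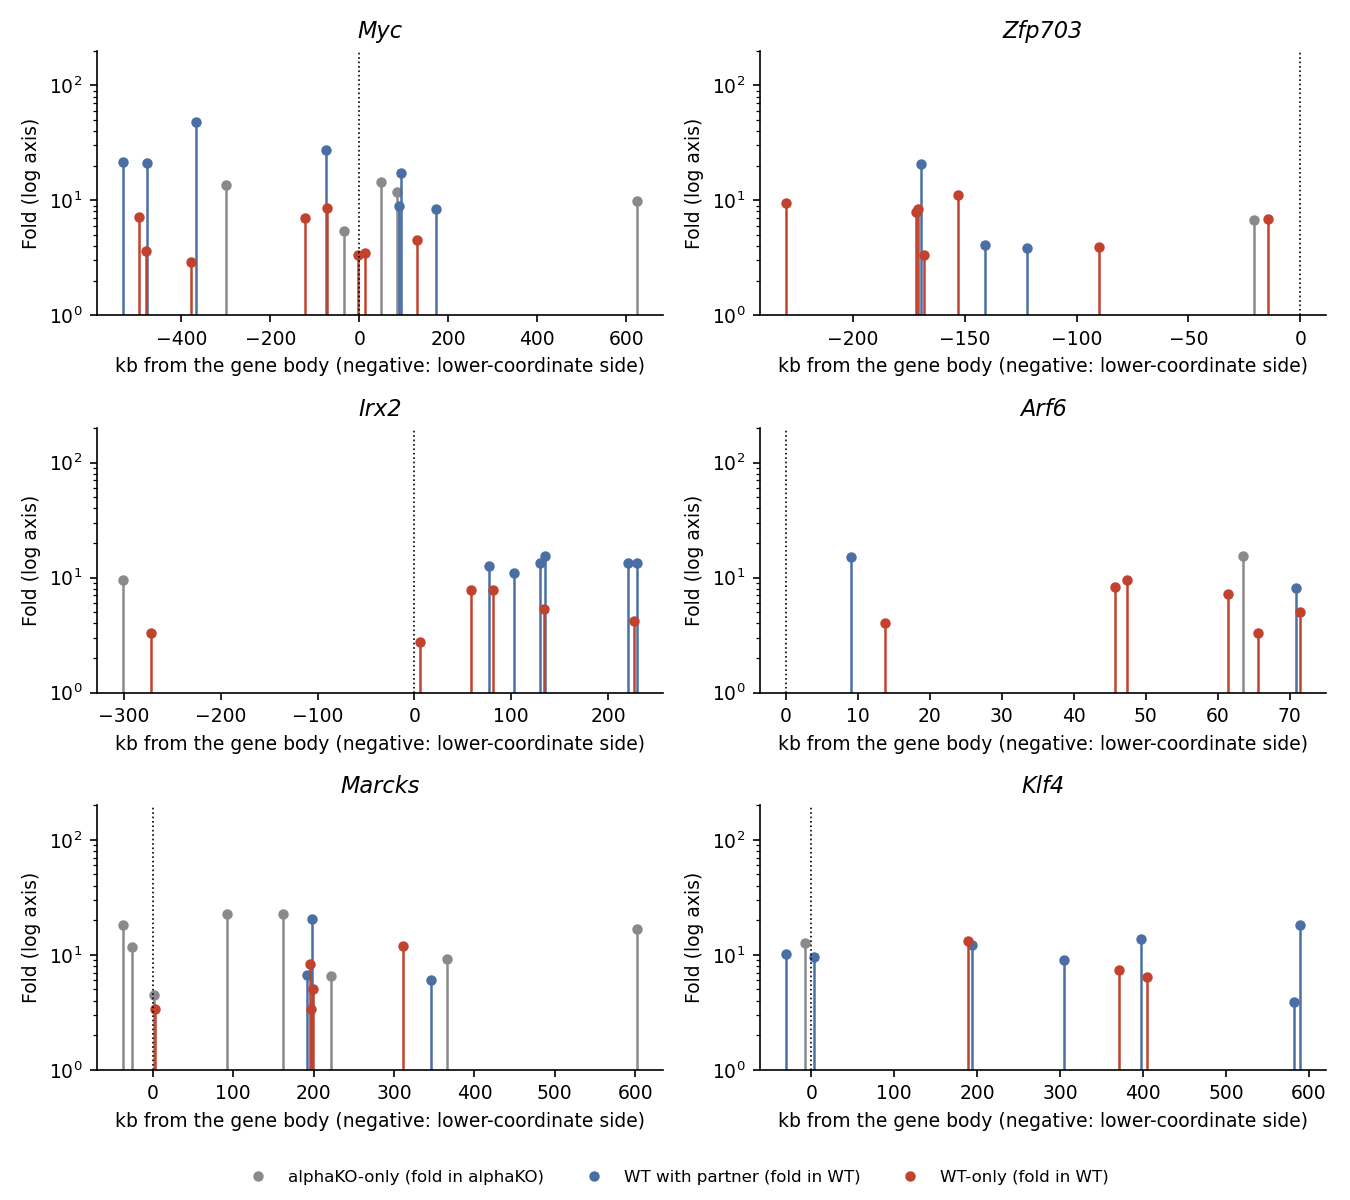
Fold enrichment (log axis) of each site against its distance in kb from the body of its nearest gene, for Myc, Zfp703, Irx2, Arf6, Marcks and Klf4; red marks WT-only sites, blue WT sites with an alphaKO partner and grey alphaKO-only sites, the last with the fold of the alphaKO list. At Irx2 every shared site (11.1 to 15.3) was above every WT-only site (2.75 to 7.79), while at Zfp703 the WT-only sites reached 11.0 and a pair of shared sites stood at 4.11 and 3.86.

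Among the 24 genes with 4 or more sites, 21 also had a shared site, and in all 21 the strongest shared site exceeded the strongest WT-only site. The other 3 genes had neither a shared nor an alphaKO-only site assigned between genes. Id1, an inhibitor of basic helix-loop-helix factors, was one of them, with sites of fold 4.19, 4.00, 5.47 and 9.54 within chr2:152726805-152744844, all 1.14 to 9.04 kb from the gene. Bhlhe40 had sites of fold 5.54, 7.26, 3.32 and 4.14, and Chd2, a chromatin remodeller, had folds from 4.45 to 7.87. Bhlhe40 and Chd2 are named because these 3 genes stood out after their values were seen. For Id1 the nearest shared WT peak was 74.4 kb or more away.

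The top site (chr3:83862693-83863350, fold 19.8) lay 21.3 kb from Tlr2, a receptor for bacterial lipoproteins, and ranked 1480 in the WT list. No alphaKO summit lay within 48.1 kb of it. The next, of fold 18.9, lay 67.4 kb from Atp10b, a lipid flippase. The site near Sfrp1, a secreted Wnt antagonist, had a fold of 16.8 at 17.0 kb from the gene, with an alphaKO summit 3.82 kb from it. A site of fold 15.4 (chr15:37199419-37199778) lay 33.2 kb from Grhl2, a grainyhead factor of epithelial junctions, 1.47 kb from a shared peak.

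The site near Fzd2, a Wnt receptor, had a fold of 14.8 at 15.9 kb inside the lncRNA gene 2810433D01Rik. A site of fold 13.0 was nearest to Tacc3, a spindle protein, with Fgfr3 at 40.6 kb on its other side. A site of fold 12.9 lay 53.6 kb from Trp53i11, a p53-induced gene. Sites near Bdh1 (15.0), Denr (14.9), Zdhhc7 (14.4) and Myl10 (13.6) completed the first 9, and a site near Pudp (13.4) was the tenth. The 25th, near Nek2, a mitotic kinase, had a fold of 11.9 and ranked 3463. Of these 25, the sites of Klf4, Grhl2 and Marcks were also at genes described above or in the lists below.

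Of 211 distinct genes in 13 lists of epidermal biology and of other skin cell types, 51 (24.2%) were nearest to at least 1 WT-only site and 83 (39.3%) to at least 1 shared site between genes. Both shares were above those of all protein-coding genes given above (4.43% and 9.56%), and the lists were chosen with results of these data known. The regulators of epidermal transcription had 18 of 30 genes at a WT-only site and 19 of 30 at a shared site. Beside Grhl2, Klf4 and Id1, the strongest was Bcl11b, a zinc-finger factor of barrier formation, with fold 8.30. Cebpa, a factor of keratinocyte cell-cycle exit, had a WT-only site of 6.95 and a shared site of 92.8. Ovol1 (6.94) and Notch1 (5.53), which act when cells leave the basal layer, had a WT-only site and no shared site between genes; these 3 were named after their values were seen.

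In the list of basal layer and anchoring genes, 5 of 20 were nearest to a WT-only site and 11 of 20 to a shared one. Itga6, the hemidesmosomal integrin subunit, had a WT-only site of fold 8.82 at 48.2 kb and shared sites up to 26.1. Col17a1, a hemidesmosomal collagen, had 6.50 and 4.35 beside shared sites of 38.8 and 14.9. Krt5, the basal keratin, had 6.03 at 3.14 kb beside shared sites of 14.4 and 17.3. The WT-only sites at Itga6, Col17a1 and Krt5 were weaker than each shared site of the same gene.

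Desmosome and adhesion genes were nearest to a WT-only site in 8 of 16 cases and to a shared site in 8 of 16. Cldn1, a tight-junction claudin, had 7.93 at 14.8 kb, and Cdh1, the epithelial cadherin, had 6.63 at 21.8 kb. Nectin1 had 6.08, and Dsc3, a basal desmocollin, had 5.46 and 5.36. The genes of the suprabasal layers and cornified envelope were at a WT-only site in 1 of 21 cases, Krt10, the early differentiation keratin, with fold 3.71 at 6.54 kb. This share, 4.76%, was near the 4.43% of all protein-coding genes. The same list had 7 of 21 genes at a shared site.

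Hair follicle genes had 5 of 20 at a WT-only site and 10 of 20 at a shared one. Dlx3, a homeobox factor of hair and differentiation, had fold 10.6 at 1.77 kb, above its shared site of 7.63. Sox9, a stem cell factor of the follicle, had 3 sites up to 10.2, Msx2 had 8.88 and Shh had 4.95 at 333 kb. Growth factors and receptors had 4 of 18 and 9 of 18. Epgn, an EGF-family ligand, had 3 sites of fold up to 10.4 from 1.19 to 3.59 kb, with no shared site and an alphaKO-only peak of 21.4. Fgfr2 had 5.80, Hbegf 4.66 and Igf1r 3.86.

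Targets of the p53 family had 4 of 20 at a WT-only site and 8 of 20 at a shared one. Pmaip1, which promotes apoptosis, had 7.72, Perp, a desmosomal p63 target, had 4.87, Gadd45b had 3.71 and Btg2 had 2.97. Alarmins and cytokines had 3 of 16 and 4 of 16, with Ccl20, a chemokine of epithelia, at 7.47, Il1b at 4.89 and Cxcl1 at 3.18. Barrier lipid genes had 4 of 15 at a WT-only site and 3 of 15 at a shared one. Elovl4, an elongase of very long acyl chains, had 6.76, Sptlc3, a subunit of sphingolipid synthesis, had 6.34, Abhd5 had 5.31 and Ugcg had 4.29.

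None of the genes that mark other skin cells was nearest to a WT-only site: 0 of 10 melanocyte markers, 0 of 9 immune markers, 0 of 10 dermal fibroblast markers and 0 of 8 endothelial markers, beside 4.43% of all protein-coding genes. With so few markers, 0 is near that share and is no result about them. Shared sites were nearest to 3, 1, 1 and 1 of them. Peaks do not measure expression, so these counts do not show which cells were in the libraries. At the weak end, the 7 lowest folds belonged to places of high background near Gm2244 and Alkbh8. They were followed by sites near Ptma (2.03), Mrtfb (2.13) and Ier2 (2.15). In all, 82 sites had a fold under 3.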

How the data were processed

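The 1256 sites and the gene lists were chosen with earlier results of these data known. ChIP and input libraries of WT and p63 alphaKO epidermis make up the 4 samples, and only the 2 ChIP peak lists were analysed. The submitters' processing notes name Bowtie2, MACS2 2.1.1.20160309 and the mm10 build; caller options and controls were not given in the sources. The deposited values, per the file headers, are the coverage (pileup signal) at each summit, −log10 of the p-value and of the q-value, and a fold enrichment, a ratio to local background. The smallest −log10 q listed was 1.31 for WT and 1.36 for alphaKO. Peaks were called per library, with no pooled samples. The lists carry no read totals, so sequencing depth is unknown.

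From these, overlaps of at least 1 shared bp, distances and classes were computed with Python 3.11.15, NumPy 2.4.6, pandas 2.3.3 and SciPy 1.17.1; figures used matplotlib 3.10.9. The code recovered all planted answers when tested on simulated data. Local background was (pileup + 1)/fold − 1. The 95% Wilson intervals of shares reflect counting error alone, and peaks are not replicates. No test between genotypes was made, with 1 library each. Gene positions, miRNA positions and the start windows came from RefSeq GRCm38.p6 tables, with 21887 protein-coding genes; 211 of 212 distinct list genes matched. The motif search planned around summits needs a genome and was not made; the search in start windows was added after the data were seen. Motif strings read the same on both strands. Upstream and downstream positions were not analysed here.

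Named genes were the nearest genes of the 25 strongest sites, up to 4 genes per list by fold, up to 10 genes with 3 or more sites, and up to 3 each of the farthest and weakest sites. A gene named by this rule is not reported here. Alternatives changed the q threshold of either list, the partner rule, the gene distance and the gene set. Further alternatives, added after seeing the data, were the length of the alphaKO list, a background filter and the window rule.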

Additional observations from a re-analysis of the deposited data

How the results depend on the processing

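With WT peaks of −log10 q of at least 10, the WT-only share of WT peaks between genes was 23.6% and the median fold 5.93, and with alphaKO peaks of at least 10 that share was 30.3%. Sites more than 5 kb from gene ends had a median distance of 36.3 kb. With non-coding genes included, the median fold was 5.34 and the median distance to a gene end 10.5 kb. An alphaKO list reduced to the length of the WT list by q, an alternative chosen after seeing the data, gave a WT-only share of 41.4%, a median fold of 5.55, a median distance to an alphaKO summit of 29.3 kb and 53.3% of sites within 50 kb of a WT peak with a partner; sites assigned to Klf4 then numbered 5. The share within 50 kb was not computed for shared sites under these alternatives. The number of WT-only sites ran from 913 to 1819 over them. A partner rule of summits within 500 bp changed nothing, since no alphaKO summit lay that close. The double core was in 2 of 34 WT-only windows (5.88%) and 23 of 60 shared windows (38.3%) when the peak had to cover 150 bases. The planned motif search around summits was not run, because no genome was used here. No paired analysis was possible because each genotype had 1 ChIP library. Depth is unknown and limits these results: 943 of 1256 sites reached a −log10 q of 10, and a site missing from a list can hold signal below its threshold.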
